A study of Mus musculus with 8 samples.

Results

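Ephrins, semaphorins and the receptors that read them were followed in mouse keratinocytes (KCs) kept in culture for 1 week or for 3 weeks. The members were the protein-coding genes of 5 families found by their symbols: the ephrins Efna and Efnb, the Eph receptors Epha and Ephb, the semaphorins of classes 3 to 7, the plexins, and the neuropilins Nrp1 and Nrp2. By this rule 53 of 41457 listed genes were members, among them 8 ephrins, 14 Eph receptors, 20 semaphorins, 9 plexins and 2 neuropilins. The rule uses symbols and no measured value, but the families were picked with earlier results of these data known. All KCs came from the tail epidermis of adult wild type mice (C57BL/6 in the labels, C57BL/6J in the paper), were untreated, and grew without serum at low calcium, and the sole labelled difference between the groups was the time in culture, with 4 samples at 1 week and 4 at 3 weeks from 4 independent experiments. Each sample was a bulk culture, so that fewer cells of a type and less RNA per cell cannot be told apart in any value below.

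Ephrins are ligands held in the membrane, the A class by a lipid anchor and the B class by a transmembrane segment, and they bind Eph receptor tyrosine kinases on a touching cell. Signals run into both cells and shape adhesion, repulsion and the sorting of cells into layers or compartments. In the epidermis EphA2 and its ephrin-A ligands are known from the contact and differentiation of KCs. Semaphorins were found as repellents of growing axons; class 3 is secreted, classes 4 to 6 span the membrane and class 7 has a lipid anchor. Plexins are their signalling receptors and turn off small GTPases of the R-Ras and Rap families, and neuropilins are the co-receptors by which most class 3 semaphorins reach the plexins of the A class.

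The libraries held 13896807 to 20026084 reads on exons, and 81.6% to 84.7% of these were unique to a position. Levels are given as RPKM, in which the reads of a gene are divided by its exon length and by the size of the library, which allows genes of different length to be compared. Changes are log2 fold changes of 3 weeks over 1 week from edgeR's quasi-likelihood test on the reads, with Benjamini-Hochberg adjustment over the 12590 genes that passed a filter on low counts, and a gene is said to have risen or fallen where the adjusted p-value was under 0.05. Over all tested genes the median was 0.03. Along the second principal component of the tested genes, which held 21.6% of the variance, replicates 3 and 4 of the 3 weeks group lay at opposite ends, apart from the other 6 samples. Among the 38 members tested, replicate 3 had the lowest RPKM of the 3 weeks samples in 28, against 41.0% of all tested genes, and replicate 4 had the highest in 23, against 38.3% of all tested genes. Values without these samples are given beside the results that change with them. The paper states that the same batches of cells were grown for both times, but the labels do not tie samples to batches. A number deposited with each sample recurs at both times for 3 of 5 numbers. The labels do not say what it stands for, and it is called the batch number here for short. Its 5 values do not match the 4 independent experiments, so it need not mark the batches of the paper. Results that change their call with a block by it or by the replicate number are given with that value. The basal KC genes Krt5, Krt14, Trp63, Itga6, Itgb4 and Cdh1 summed to 12337 to 14500 RPKM at 1 week and to 7282 to 8446 RPKM at 3 weeks, and Krt5 and Itga6 were the ones that fell. Of the markers of other cells, the smooth muscle and pericyte list went from 139 to 365 RPKM at 1 week to 1114 to 2691 RPKM at 3 weeks, nearly all of it Acta2, which encodes smooth muscle actin. Pdgfrb of the same list fell, and Myh11, Rgs5 and Des did not pass the filter. Fibroblast, endothelial and immune lists summed to at most 4.65, 0.426 and 2.08 RPKM in any sample. Suprabasal KC, melanocyte and Schwann cell or neuron lists ranged from 4.23 to 29.8, 3.18 to 20.9 and 4.89 to 22.1 RPKM at 1 week and from 3.92 to 13.7, 1.26 to 5.50 and 0.695 to 3.68 RPKM at 3 weeks. The part of any of these cells in the results below was not tested.

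Of the 53 members, 38 passed the filter, 3 had some reads but too few to be tested, and 12 had at most 3 reads in every sample. Reads are those on exons here and below, unless introns are named. The highest levels were those of the secreted semaphorin Sema3c, the receptor Epha2, the ligand Efnb1 and the plexin Plxnb2, which led the members in this order at 1 week, whereas at 3 weeks the order was Epha2, Plxnb2, Efnb1 and Sema3c. At 1 week Sema3c and Epha2, with 96.8 ± 11.9 and 91.1 ± 11.5 RPKM (SD, n = 4 each), did not differ beyond their spread, and neither did Efnb1 and Plxnb2 at either time. Among the 38 tested members 11 rose (28.9%), where 15.7% of all tested genes rose, and 2 fell (5.26%), where 17.0% of all tested genes fell. Called in either direction were 34.2% of the tested members and 32.8% of all tested genes. The median log2 fold change of the tested members was 0.47. Without replicate 1 of the 1 week group 7 members rose instead of 11, and without replicates 3 or 4 of the 3 weeks group 16 and 11 rose. Over all tested genes, 1981 of 12590 rose with all samples and 1379 of 12756 without replicate 1 of the 1 week group. Without replicates 3 or 4 of the 3 weeks group, 2194 of 12799 and 2284 of 12810 rose. Of the 25 tested members that did not pass, 8 passed in at least 1 of 19 alternatives: Efnb2, Nrp1, Plxna1, Sema4d and Sema6a without replicate 3 of the 3 weeks group (edgeR adjusted p = 0.0254, 0.0254, 0.0352, 0.0441 and 0.0394), Sema4a without replicate 4 of the 3 weeks group (0.0468), and Ephb2 and Sema5a without replicates 3 and 4 of the 1 week group (0.024 and 0.0322). The ligands made up most of the calls, as 9 of 23 tested ephrins and semaphorins rose and 2 fell, whereas 2 of 15 tested receptors rose and none fell. Their median log2 fold changes were 0.90 and 0.30. The difference between ligands and receptors was not tested. In RPKM, 8 of the 38 tested members lay higher in every 3 weeks sample than in any 1 week sample, and 2 lay lower. Of all tested genes 10.8% lay higher and 26.2% lower, or 37.0% in either direction. RPKM holds no correction for library composition, unlike the fit, whose TMM scaling factors were 1.03 to 1.07 at 1 week. At 3 weeks they were 0.853 to 0.997, lowest in replicate 3, so RPKM lies lower there relative to the fit. The plot of mean levels at both times shows the members on either side of the line of equal levels.

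**Figure D1:**
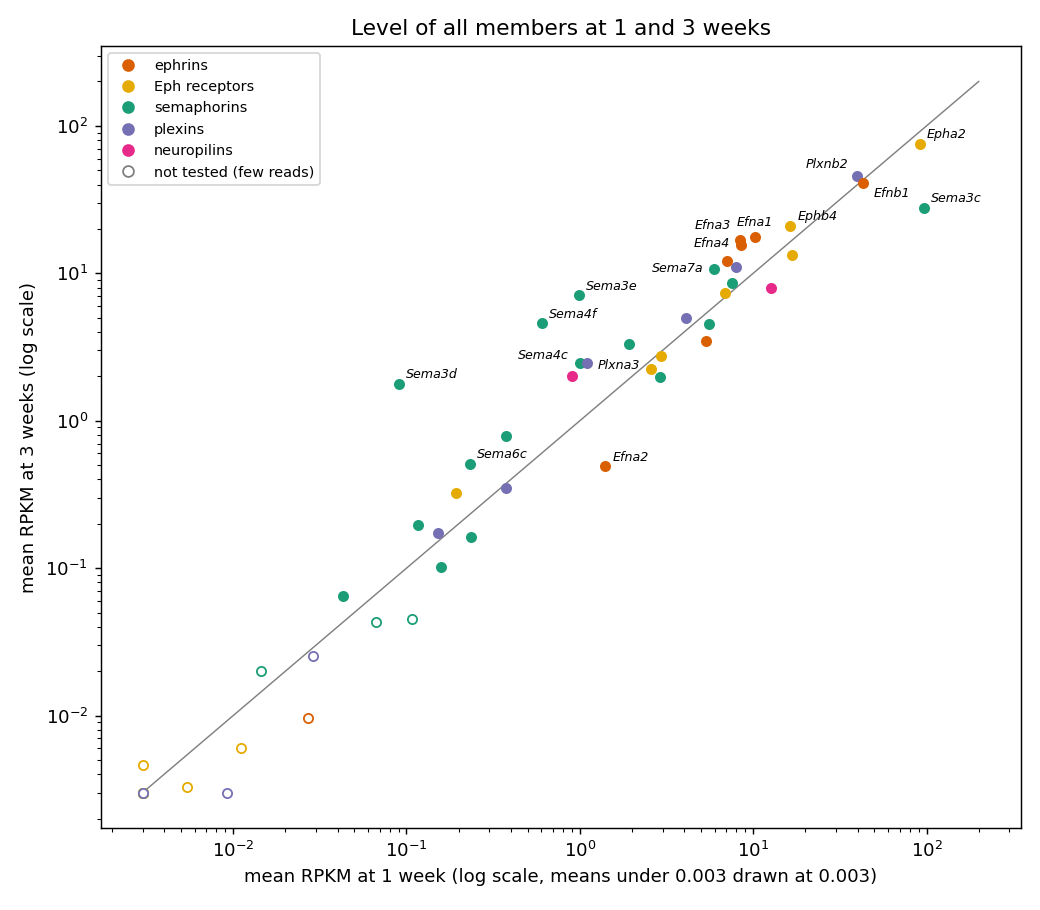
Mean RPKM of each of the 53 members at 1 week (horizontal axis, log scale) and at 3 weeks (vertical axis, log scale), coloured by family, with open points for the 15 members not tested. The grey line marks equal levels, means under 0.003 RPKM are drawn at 0.003, and the names are those of members that rose or fell or had a mean over 20 RPKM: Sema3d, Sema4f and Sema3e stand farthest above the line and Sema3c and Efna2 farthest below it among the tested members.

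Among the ephrins the A class changed most. Efna1, Efna3 and Efna4, lipid-anchored ligands of EphA receptors, rose by log2 fold changes of 0.96 to 1.16, and Efna2 fell, while Efna5, Efnb1 and Efnb2 did not pass the test. The genes Efna1, Efna3 and Efna4 lie side by side on the minus strand of chromosome 3 (GRCm38), at chr3:89271733-89281142, chr3:89313899-89322965 and chr3:89333390-89338028. The gap from Efna1 to Efna3 is 32.8 kb and holds 1 listed gene, and the gap from Efna3 to Efna4 is 10.4 kb and holds none. Since these neighbours rose together, their promoters are shown. Each run covers 250 bases before to 50 bases after a RefSeq start (GRCm38.p6, minus strand, written 5′ to 3′), at chr3:89280902-89281201 for Efna1, chr3:89322890-89323189 for Efna3 and chr3:89337979-89338278 for Efna4. Where RefSeq gives several starts, the one farthest upstream is printed, and capitals mark motifs found on either strand, which may overlap. The motifs searched were the AP-1 motif, spelled TGANTCA, the TATA box, spelled TATAAA, the CCAAT box, the GC box, spelled GGGCGG, and the E-box, spelled CACGTG.
Efna1: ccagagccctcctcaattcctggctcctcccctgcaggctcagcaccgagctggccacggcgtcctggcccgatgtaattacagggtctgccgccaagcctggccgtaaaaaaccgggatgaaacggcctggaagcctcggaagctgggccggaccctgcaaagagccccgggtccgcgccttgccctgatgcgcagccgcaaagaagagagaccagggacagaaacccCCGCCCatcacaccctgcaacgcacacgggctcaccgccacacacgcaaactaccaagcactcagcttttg
Efna3: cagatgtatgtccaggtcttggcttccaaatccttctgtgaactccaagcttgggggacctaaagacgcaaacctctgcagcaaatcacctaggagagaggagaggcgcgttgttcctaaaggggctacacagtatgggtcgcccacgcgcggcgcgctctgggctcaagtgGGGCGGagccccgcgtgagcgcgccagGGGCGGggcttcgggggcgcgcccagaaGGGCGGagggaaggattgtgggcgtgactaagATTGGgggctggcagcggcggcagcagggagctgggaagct
Efna4: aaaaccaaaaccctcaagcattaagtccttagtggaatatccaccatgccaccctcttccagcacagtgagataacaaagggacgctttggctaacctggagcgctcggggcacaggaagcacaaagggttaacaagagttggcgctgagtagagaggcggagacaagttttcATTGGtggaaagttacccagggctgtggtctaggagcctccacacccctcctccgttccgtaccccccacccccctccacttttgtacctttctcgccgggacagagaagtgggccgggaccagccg
The Efna1 window held 1 GC box, the Efna3 window 3 GC boxes and 1 CCAAT box, and the Efna4 window 1 CCAAT box. Their GC contents were 63.7%, 64.0% and 55.7%, with 20, 22 and 11 CpG pairs. Over the 61 promoters found for 47 of the 53 members, the median GC content was 64.0%, against 52.7% over all 32851 promoters of the reference, and the median number of CpG pairs was 20 against 7. A GC box stood in 75.4% of the member promoters and in 35.7% of all promoters, a TATA box in 1.64% and 13.6%, a CCAAT box in 32.8% and 37.4%, an AP-1 motif in 4.92% and 7.81%, and an E-box in 6.56% and 7.15%. These are counts of letters in a window and say nothing of binding, and a link to the changes was not tested.

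Efna1 was measured at 10.3, 10.2, 10.6 and 10.1 RPKM at 1 week and at 18.4, 17.1, 20.6 and 14.9 RPKM at 3 weeks. The groups did not overlap, and the 1 week samples lay within a narrow band. Its log2 fold change was 0.96 with an SE of 0.16 (edgeR, adjusted p = 0.00213). Efna4 stood at 8.80, 8.08, 9.63 and 7.37 RPKM at 1 week and at 15.3, 15.9, 16.4 and 14.8 RPKM at 3 weeks, again without overlap. The fitted change was 1.05 ± 0.14 (SE, edgeR adjusted p = 0.000959). For Efna3 the values were 8.14, 6.20, 9.64 and 9.64 RPKM at 1 week and 11.7, 13.9, 12.6 and 29.6 RPKM at 3 weeks. Every 3 weeks sample was above every 1 week sample, and replicate 4 lay far above the other 3. The log2 fold change of Efna3 was 1.16 ± 0.30 (SE, edgeR adjusted p = 0.0166). It was 0.79 with an adjusted p of 0.0105 without replicate 4 of the 3 weeks group, while the adjusted p was 0.0529 without replicate 1 of the 1 week group, the highest of all alternatives for this gene. Of the reads on Efna3 and Efna4, 79.2% and 87.3% were unique to a position, so their values depend more than those of Efna1 on how shared reads were placed, but both were also called on unique reads alone.

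Efna2, a further ligand of EphA receptors (chr10:80179482-80190010, plus strand), had 1.26, 1.30, 1.31 and 1.73 RPKM at 1 week and 0.453, 0.343, 0.600 and 0.575 RPKM at 3 weeks. It was low in all samples, with 40 to 65 reads at 1 week and 12 to 21 reads at 3 weeks, and the groups did not overlap. The level fell by 1.33 on the log2 scale (SE 0.28, edgeR adjusted p = 0.00664), a 2.51-fold lower level. Efna5, which unlike most A-class ephrins also binds EphB2, stood at 5.34 ± 0.932 RPKM (SD, n = 4) at 1 week and at 3.45 ± 1.41 RPKM (SD, n = 4) at 3 weeks, a difference that did not pass the test (log2 fold change -0.49, 95% interval -1.13 to 0.15, edgeR adjusted p = 0.22). Summed over its 5 genes the A class went from 30.1 to 37.6 RPKM per sample at 1 week to 50.8 to 63.6 RPKM at 3 weeks. The groups of sums did not overlap.

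The B-class ephrins, transmembrane ligands of EphB receptors, were led by Efnb1. Efnb1 stood at 38.6, 44.5, 47.1 and 41.2 RPKM at 1 week and at 54.6, 48.6, 32.5 and 28.4 RPKM at 3 weeks. The 3 weeks samples lay on both sides of the 1 week samples, and the log2 fold change was 0.10 (95% interval -0.35 to 0.55, edgeR adjusted p = 0.743). Its sign turned on log2(RPKM) values, where it was -0.11. Efnb1 made up 51.2% ± 2.97 (SD, n = 4) of the summed ephrin RPKM at 1 week and 38.0% ± 9.45 (SD, n = 4) at 3 weeks. Efnb2, a ligand of EphB4 in vessels, had 4.48, 5.65, 9.39 and 8.91 RPKM at 1 week and 12.4, 10.6, 5.74 and 19.4 RPKM at 3 weeks. Here replicate 3 of the 3 weeks group lay within the range of the 1 week samples and the others lay above it. The change of 0.90 ± 0.34 (log2, SE) did not pass the test (edgeR adjusted p = 0.0718), but it passed without that replicate and with a block by batch number (0.0408). Efnb3 had 0 to 3 reads per sample and is counted as not expressed at this depth.

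Of the 14 Eph receptors, which read the ephrins, 7 were tested, and Ephb4 alone among them passed the test. For Epha4 and Ephb2 the 95% intervals of the log2 fold change, -0.93 to 1.02 and -0.01 to 1.89, leave room for large changes. Epha2, the main EphA receptor of KCs, stood at 74.8, 101, 92.3 and 96.1 RPKM at 1 week and at 89.7, 87.4, 45.1 and 79.8 RPKM at 3 weeks. Replicate 3 of the 3 weeks group was below all others, and the remaining samples of both groups shared a range. The log2 fold change of Epha2 was -0.12 (95% interval -0.55 to 0.30, edgeR adjusted p = 0.653), and changes within this interval are not excluded. Epha2 made up 66.5% ± 2.25 (SD, n = 4) of the summed RPKM of all Eph receptors at 1 week and 61.2% ± 3.88 (SD, n = 4) at 3 weeks. Epha1, a founding member of the family that is found in epidermis, had 16.8 ± 1.34 RPKM (SD, n = 4) at 1 week and 13.4 ± 3.37 RPKM (SD, n = 4) at 3 weeks (log2 fold change -0.18, edgeR adjusted p = 0.424). Of the reads on Epha1, 85.1% were unique to a position. The gene overlaps Zyx on the other strand, and a part of Zyx reads in its level was not tested. For Epha4, which binds ephrins of both classes, the mean went from 2.94 ± 1.23 to 2.77 ± 1.80 RPKM (SD, n = 4 each), with a log2 fold change of 0.05 that turned to -0.21 on the log2(RPKM + 0.1) scale.

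Ephb4, the receptor of ephrin-B2 (chr5:137350109-137378669, plus strand), had 13.8, 17.6, 18.3 and 15.6 RPKM at 1 week and 26.8, 22.0, 15.2 and 20.3 RPKM at 3 weeks. Replicate 3 of the 3 weeks group lay within the 1 week range and the other 3 lay above it. It rose by 0.52 ± 0.16 (log2, SE) with an adjusted p of 0.0303 by edgeR. This call was near the threshold: it held in 9 of 19 alternatives, with an adjusted p of up to 0.166, and was lost without replicate 1, 2 or 4 of the 1 week group (adjusted p = 0.114, 0.0566 and 0.0819) and without replicate 1 or 2 of the 3 weeks group (0.0781 and 0.0723). It was also lost with a block by replicate number (0.1005) or by batch number (0.0619). Ephb3, which is known from the sorting of cells in the gut crypt, stood at 6.88 ± 1.79 and 7.37 ± 3.09 RPKM (SD, n = 4 each) with a log2 fold change of 0.24 (edgeR adjusted p = 0.535). Ephb6, a receptor without kinase activity, had 2.56 ± 0.141 and 2.23 ± 1.10 RPKM (SD, n = 4 each), where replicate 4 of the 3 weeks group reached 3.86 RPKM and the other 3 stayed at 1.48 to 1.81 RPKM. Ephb2 was low, at 0.192 ± 0.118 and 0.325 ± 0.101 RPKM (SD, n = 4 each), with a log2 fold change of 0.94 (edgeR adjusted p = 0.119). Epha5, Epha6, Epha8 and Epha10 had no read on exons in any of the 8 samples, and Epha3, Epha7 and Ephb1 had at most 2, 1 and 3. On introns, Epha5 had 328 reads in all at 1 week, 317 of them in 1 sample, and 69 at 3 weeks. Epha6 had 63 and 82 such reads, Epha10 had 3 and 6, and Epha8 had none. A count of 0 on exons allows up to 3 reads, which for these 4 genes is at most 0.0443 RPKM, for counting error only.

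The semaphorins changed in their composition. At 1 week a single gene, Sema3c, made up 77.5% ± 3.92 (SD, n = 4) of the summed semaphorin RPKM, and at 3 weeks 36.9% ± 4.33 (SD, n = 4). Its level fell, while 6 of the 16 tested semaphorins rose: Sema3d and Sema3e of the secreted class, Sema4c and Sema4f of class 4, Sema6c and Sema7a. Rises took 37.5% of the tested semaphorins and falls 6.25%, against 15.7% and 17.0% of all tested genes. The sum over the 20 semaphorins went from 110 to 135 RPKM per sample at 1 week to 43.4 to 115 RPKM at 3 weeks, and replicate 4 of the 3 weeks group was the one at 115 RPKM, within the 1 week range. The plot of semaphorin levels shows these sums by gene.

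**Figure D2:**
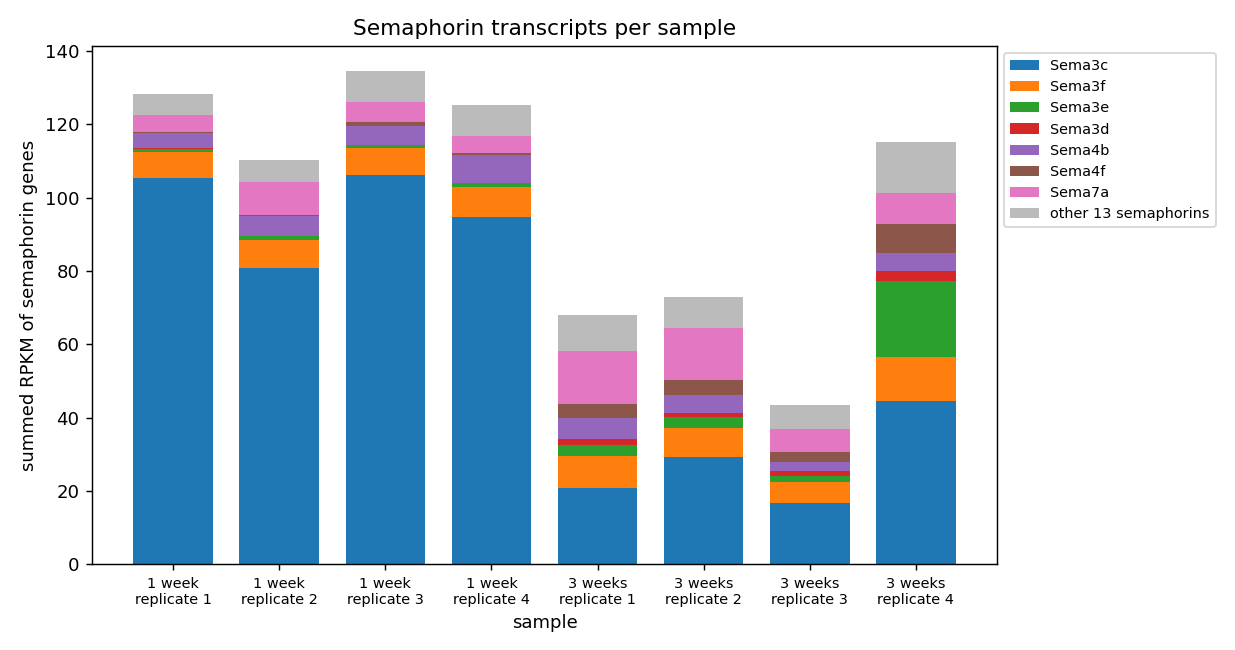
Summed RPKM of the 20 semaphorin genes in each of the 8 samples (vertical axis), with the 7 named genes in colour and the other 13 in grey. The Sema3c block takes 73.3% to 82.3% of the bar in the 1 week samples and 30.6% to 40.3% in the 3 weeks samples, and the tallest 3 weeks bar is that of replicate 4, where Sema3e takes 17.9%.

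Sema3c (chr5:17574281-17730268, plus strand), a secreted semaphorin that acts through neuropilins and plexins, had 105, 80.7, 106 and 94.8 RPKM at 1 week and 20.8, 29.3, 16.6 and 44.6 RPKM at 3 weeks. All 3 weeks samples lay far below the lowest 1 week sample. The level fell by 1.66 on the log2 scale (SE 0.27, 95% interval -2.26 to -1.05, edgeR adjusted p = 0.0021), a 3.16-fold lower level, and the call held in all 19 alternatives. In its introns, 81 to 143 reads per sample lay at 1 week and 19 to 71 at 3 weeks, and scaled to the library these groups overlapped.

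Sema3d (chr5:12383385-12588948, plus strand), another secreted semaphorin, was near its lower limit at 1 week, with 0.0978, 0.0904, 0.0892 and 0.0857 RPKM from 16, 16, 11 and 13 reads. At 3 weeks it stood at 1.66, 1.26, 1.40 and 2.80 RPKM from 266, 178, 197 and 353 reads. The rise was seen in all 4 samples, with a log2 fold change of 4.43 ± 0.29 (SE, 95% interval 3.78 to 5.08, edgeR adjusted p = 0.000164), a 21.5-fold higher level and the largest change of any tested member in this fit. The promoters of Sema3d and Sema3c, the tested members with the largest rise and the largest fall, are shown (RefSeq, GRCm38.p6, plus strand, chr5:12382916-12383215 and chr5:17574566-17574865, with capitals as above).
Sema3d: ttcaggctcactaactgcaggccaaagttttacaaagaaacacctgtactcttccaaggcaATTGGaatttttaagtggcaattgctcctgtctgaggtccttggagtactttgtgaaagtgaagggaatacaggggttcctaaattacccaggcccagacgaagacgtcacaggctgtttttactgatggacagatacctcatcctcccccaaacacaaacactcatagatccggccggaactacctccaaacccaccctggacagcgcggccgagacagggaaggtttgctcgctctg
Sema3c: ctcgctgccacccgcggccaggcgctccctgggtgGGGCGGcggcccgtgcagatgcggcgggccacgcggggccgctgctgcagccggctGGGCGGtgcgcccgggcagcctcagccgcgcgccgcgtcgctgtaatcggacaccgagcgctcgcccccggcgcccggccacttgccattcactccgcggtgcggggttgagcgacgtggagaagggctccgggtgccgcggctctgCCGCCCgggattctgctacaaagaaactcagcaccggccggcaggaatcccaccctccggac
The Sema3d window had a GC content of 49.7% with 8 CpG pairs and 1 CCAAT box, and the Sema3c window a GC content of 75.7% with 42 CpG pairs and 3 GC boxes. The pair was picked by its changes, and a link of these letters to the changes was not tested.

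Sema3e, a secreted semaphorin that binds plexin-D1 without a neuropilin (chr5:14025276-14256689, plus strand), had 0.933, 1.20, 0.795 and 1.02 RPKM at 1 week and 3.00, 3.04, 1.65 and 20.7 RPKM at 3 weeks. The groups did not overlap, but replicate 4 of the 3 weeks group was several times above the other 3. The log2 fold change of 2.96 ± 0.74 (SE, edgeR adjusted p = 0.015) was 1.54 with an adjusted p of 0.0012 without this sample. On the log2(RPKM + 1) scale limma gave an adjusted p of 0.0729, the highest over the alternatives for Sema3e. Sema3d, Sema3a and Sema3e follow each other on chromosome 5 with gaps of 536 and 423 kb. Sema3a, the prototype axon repellent, lies between the 2 genes that rose and had 0.0430 ± 0.0172 and 0.0643 ± 0.0300 RPKM (SD, n = 4 each), a difference that did not pass the test (log2 fold change 0.71, edgeR adjusted p = 0.234). Sema3f, a ligand of neuropilin-2, was the semaphorin with the second highest level at 1 week, at 7.50 ± 0.536 RPKM, and stood at 8.62 ± 2.53 RPKM at 3 weeks (SD, n = 4 each, log2 fold change 0.35, edgeR adjusted p = 0.156). Sema3b, low in all samples, had 0.235 ± 0.115 and 0.162 ± 0.199 RPKM (SD, n = 4 each). Sema3g had 0 to 3 reads per sample and counts as not expressed.

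Of the 6 class 4 semaphorins, which are held in the membrane, all were tested, and 2 rose. Sema4f (chr6:82911885-82939769, minus strand) had 0.387, 0.468, 1.07 and 0.493 RPKM at 1 week and 3.84, 4.12, 2.61 and 7.81 RPKM at 3 weeks. The lowest 3 weeks sample was above the highest 1 week sample, and the log2 fold change was 3.08 ± 0.40 (SE, edgeR adjusted p = 0.000821). Its share of the semaphorin RPKM went from 0.478% ± 0.216 to 6.03% ± 0.528 (SD, n = 4 each). Sema4c, a ligand of plexin-B2 (chr1:36548639-36558349, minus strand), stood at 1.13, 1.11, 0.971 and 0.778 RPKM at 1 week and at 3.08, 2.37, 2.70 and 1.70 RPKM at 3 weeks. No values overlapped, and the log2 fold change was 1.48 ± 0.24 (SE, edgeR adjusted p = 0.00205). The other 4 of the class did not pass the test. Sema4b went from 5.53 ± 1.47 to 4.50 ± 1.43 RPKM and Sema4a from 2.88 ± 0.724 to 1.97 ± 0.691 RPKM (SD, n = 4 each, log2 fold changes -0.15 and -0.40). Sema4d, the ligand of plexin-B1 that is also known from lymphocytes, had 1.91 ± 0.589 and 3.31 ± 2.22 RPKM (SD, n = 4 each, log2 fold change 0.92, edgeR adjusted p = 0.121), and Sema4g had 0.158 ± 0.0538 and 0.102 ± 0.0543 RPKM (SD, n = 4 each).

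The class 7 gene Sema7a, whose product binds plexin-C1 and integrin β1 (chr9:57940112-57962865, plus strand), had 4.73, 8.85, 5.49 and 4.73 RPKM at 1 week and 14.4, 14.1, 6.28 and 8.32 RPKM at 3 weeks. Replicates 1 and 2 of the 3 weeks group were above all 1 week samples, and replicates 3 and 4 lay below the highest of these. It rose by 1.01 ± 0.29 (log2, SE, edgeR adjusted p = 0.0276), a call that held in 12 of 19 alternatives and was lost without replicate 1, 3 or 4 of the 1 week group (adjusted p = 0.0862, 0.0697 and 0.0787) and without replicate 1 or 2 of the 3 weeks group (0.0762 and 0.0756). Sema6c (chr3:95160457-95174024, plus strand) had 0.115, 0.155, 0.352 and 0.306 RPKM at 1 week and 0.615, 0.554, 0.297 and 0.585 RPKM at 3 weeks. Again replicate 3 of the 3 weeks group fell within the 1 week range. The log2 fold change was 1.30 ± 0.38 (SE, edgeR adjusted p = 0.0295), from 13 to 32 reads per sample at 1 week and 29 to 68 at 3 weeks. It too held in 12 of 19 alternatives and was lost without replicate 1 or 2 of the 1 week group (adjusted p = 0.0776 and 0.078) or of the 3 weeks group (0.0749 and 0.0674), and with a block by replicate or batch number (0.0697 and 0.0671). Of the remaining membrane semaphorins, Sema5a had 0.373 ± 0.241 and 0.786 ± 0.377 RPKM (SD, n = 4 each, log2 fold change 1.22, edgeR adjusted p = 0.0787, and 0.0297 and 0.047 with a block by replicate or batch number) and Sema6a 0.117 ± 0.0455 and 0.195 ± 0.121 RPKM (SD, n = 4 each, log2 fold change 0.87, edgeR adjusted p = 0.229). Sema6b and Sema6d had 1 to 11 and 3 to 19 reads per sample and were not tested, and Sema5b had 1 read at most in any sample.

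**Figure D3:**
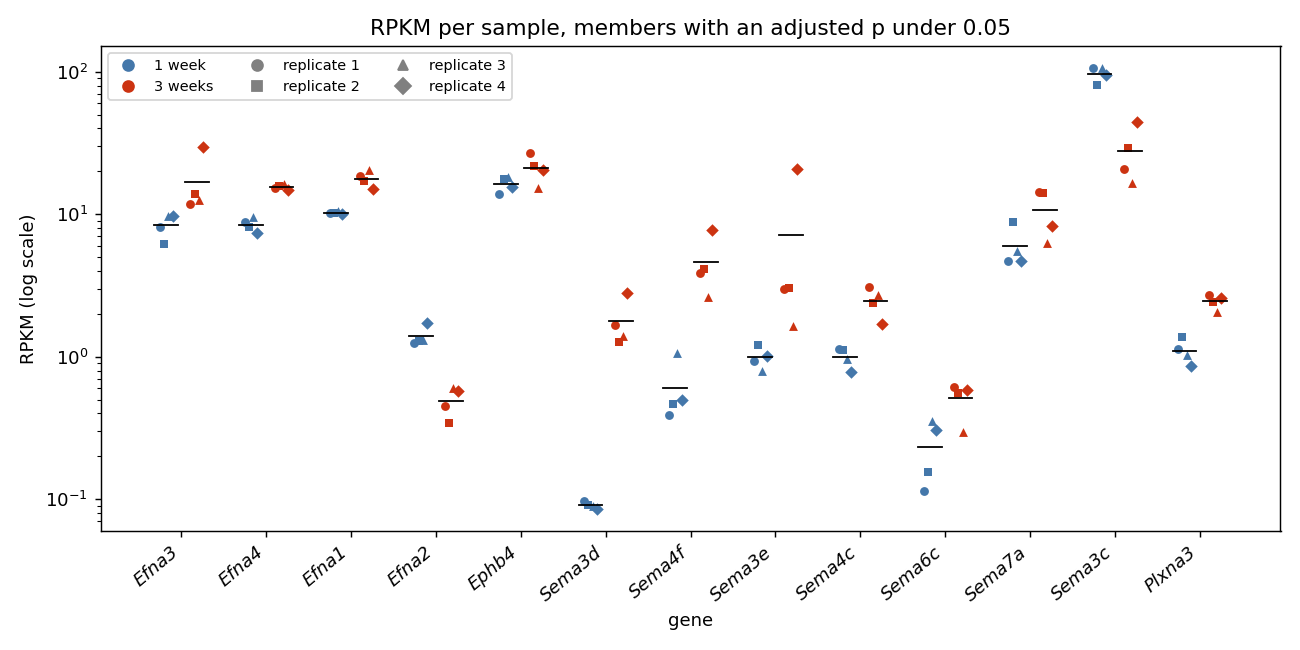
RPKM (vertical axis, log scale) of the 13 members with an adjusted p-value under 0.05, in each 1 week sample (blue) and each 3 weeks sample (red), with a symbol for each replicate number and a black line at the mean. Sema3c and Efna2 lie lower at 3 weeks and the others higher, the groups overlap for Ephb4, Sema6c and Sema7a, and replicate 4 (diamond) is the high 3 weeks point of Efna3 and Sema3e.

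The plexins were led by the B class. Plxnb2, the main plexin of these cells, stood at 31.9, 39.7, 42.1 and 45.9 RPKM at 1 week and at 45.9, 37.7, 20.5 and 79.5 RPKM at 3 weeks. Replicates 3 and 4 of the 3 weeks group lay below and above all 1 week samples, and the log2 fold change was 0.34 (95% interval -0.38 to 1.06, edgeR adjusted p = 0.45). Plxnb2 made up 74.6% ± 1.86 of the summed plexin RPKM at 1 week and 70.2% ± 2.92 at 3 weeks (SD, n = 4 each). Plxnb1, the receptor of Sema4d, had 4.12 ± 0.919 and 4.97 ± 1.70 RPKM (SD, n = 4 each, log2 fold change 0.41, edgeR adjusted p = 0.229), and Plxnb3 had 1 read in all.

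Plxna3, an A-class plexin that signals for class 3 semaphorins with neuropilins (chrX:74329066-74344689, plus strand), was the plexin that rose. It had 1.13, 1.37, 1.03 and 0.863 RPKM at 1 week and 2.72, 2.43, 2.06 and 2.58 RPKM at 3 weeks. The groups were well apart and each was narrow, also in replicates 3 and 4 of the 3 weeks group. The log2 fold change was 1.31 ± 0.16 (SE, edgeR adjusted p = 0.000674) and the call held in all 19 alternatives. Plxna1, of the same class, had a higher level, at 5.72 to 10.1 RPKM at 1 week and at 3.34 to 18.1 RPKM at 3 weeks. Its 3 weeks values enclosed the 1 week values (log2 fold change 0.62, edgeR adjusted p = 0.276), and 52.3% of its reads were unique to a position. Plxna2 had 0.377 ± 0.0724 and 0.349 ± 0.211 RPKM (SD, n = 4 each) and Plxna4 0 to 3 reads per sample. Plxnd1, the receptor of Sema3e, was low throughout, at 0.153 ± 0.0420 and 0.173 ± 0.126 RPKM (SD, n = 4 each, log2 fold change 0.30, 95% interval -0.74 to 1.35, edgeR adjusted p = 0.649). Plxnc1, the plexin that binds Sema7a, had 0 to 9 reads per sample and was not tested.

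Both neuropilins were measured, and neither passed the test. Nrp2 had the higher level, at 9.94, 16.8, 11.6 and 12.2 RPKM at 1 week and at 9.23, 7.24, 3.97 and 11.6 RPKM at 3 weeks. The groups overlapped, and the log2 fold change was -0.51 (95% interval -1.13 to 0.10, edgeR adjusted p = 0.18). Nrp1, which also serves as a co-receptor of VEGF, had 0.644, 0.551, 1.28 and 1.11 RPKM at 1 week and 1.61, 1.57, 0.840 and 4.04 RPKM at 3 weeks. Apart from replicate 3, the 3 weeks samples were above the 1 week samples (log2 fold change 1.30 ± 0.45, SE, edgeR adjusted p = 0.0535), and Nrp1 passed the test in 5 of 19 alternatives, among them the block by batch number (0.0375). Nrp2 made up 93.1% ± 2.95 of the summed neuropilin RPKM at 1 week and 81.0% ± 4.75 at 3 weeks (SD, n = 4 each). The plot of fold changes gives the interval of every tested member.

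**Figure D4:**
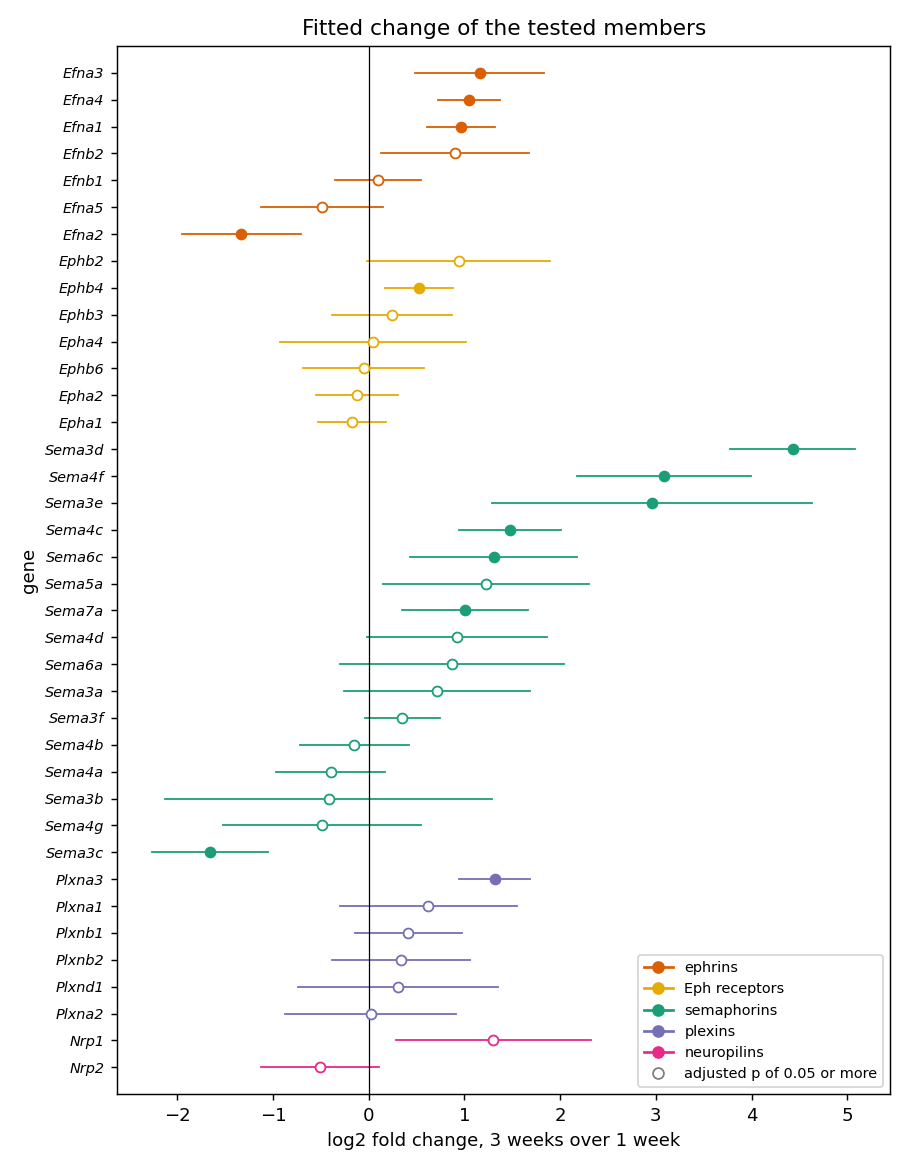
Log2 fold change of 3 weeks over 1 week (horizontal axis) for the 38 tested members, ordered by family and coloured as in the plot of mean levels, with 95% intervals as lines and filled points for an adjusted p-value under 0.05. Sema3d lies farthest to the right at 4.43 and Sema3c farthest to the left at -1.66, and the intervals of Epha2, Efnb1 and Plxnb2 include 0.

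Ephrin and semaphorin receptors work with partners in the membrane, which were followed as a list of 16 genes. Of these, 11 were tested, 1 rose and 2 fell (27.3% called against 32.8% of all tested genes, median log2 fold change -0.17). Chl1, an adhesion molecule of the L1 family that joins neuropilin complexes, went from 3.30, 5.08, 3.08 and 4.71 RPKM to 0.628, 0.549, 0.277 and 0.958 RPKM. The groups did not overlap, and the level fell by 2.61 on the log2 scale (SE 0.32, edgeR adjusted p = 0.000674). Met, the receptor of hepatocyte growth factor that pairs with B-class plexins, stood at 60.6 ± 8.08 and 28.1 ± 12.0 RPKM (SD, n = 4 each) and fell by 0.97 (log2, SE 0.25, edgeR adjusted p = 0.0174, but 0.0502 without replicate 4 of the 1 week group and 0.0519 without replicate 1 of the 3 weeks group). Itgb1, the integrin β1 chain that Sema7a binds, rose from 320 ± 32.9 to 497 ± 99.4 RPKM (SD, n = 4 each), a log2 fold change of 0.79 ± 0.17 (SE, edgeR adjusted p = 0.00698).

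Of 55 cytoplasmic effectors 51 were tested, 5 rose and 4 fell, so that 17.6% were called against 32.8% of all tested genes, with a median log2 fold change of 0.20. Ngef, the exchange factor ephexin that links EphA receptors to RhoA, went from 1.68 ± 0.432 to 0.355 ± 0.170 RPKM (SD, n = 4 each), and its level fell by 2.09 (log2, SE 0.37, edgeR adjusted p = 0.00318). Mical1, an actin-oxidising enzyme that acts under plexins, fell by 0.92 and Rgs3, a regulator of G proteins bound by B-class ephrins, fell by 0.75 (log2, edgeR adjusted p = 0.0278 and 0.035). Dpysl3, of the collapsin response mediators, rose by a log2 fold change of 1.24 (edgeR adjusted p = 0.0264), with 14.9 to 23.1 RPKM at 1 week and 19.1 to 66.2 RPKM at 3 weeks. Cdk5, a kinase that acts on these mediators, rose from 12.5 ± 1.21 to 20.5 ± 2.98 RPKM (SD, n = 4 each, log2 fold change 0.89, edgeR adjusted p = 0.00386). The calls of Mical1, Rgs3 and Dpysl3 were lost in some runs that left out 1 sample, with adjusted p-values of up to 0.0797, 0.0898 and 0.0756 (without replicate 2 of the 3 weeks group, replicate 2 of the 1 week group and replicate 4 of the 1 week group). With a block by batch number the adjusted p was 0.0566 for Mical1 and 0.0963 for Rgs3, and by replicate number 0.0669 for Mical1. The other calls were rises of Nck2, Pick1 and Pak1 and a fall of Acp1. In place of 9 effectors, 4 were called without replicate 2 of either group, 5 without replicate 4 of the 1 week or replicate 1 of the 3 weeks group, and 17 without replicate 3 of the 3 weeks group. The calls over all genes moved the same way, from 4127 of 12590 with all samples. They were 3322 of 12755 and 3147 of 12799 without replicate 2 of the 1 week and the 3 weeks group. In the other runs named they were 3015 of 12741, 3205 of 12742 and 4861 of 12799, in this order.

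Ephrins, Eph receptors and membrane semaphorins are shed by proteases, of which 8 were followed. Of the 7 tested, 2 rose and none fell (28.6% called against 32.8% of all tested genes, median log2 fold change 0.58). Adam10, the sheddase that cuts A-class ephrins, averaged 24.1 ± 3.70 RPKM in the 1 week group and 32.2 ± 4.47 RPKM in the 3 weeks group (SD, n = 4 each). The 3 weeks samples lay above all 1 week samples except for replicate 3 (log2 fold change 0.58 ± 0.13, SE, edgeR adjusted p = 0.011). Mmp14, a membrane-type matrix protease that cleaves EphA2, stood at 17.9 ± 2.63 and 32.1 ± 12.1 RPKM (SD, n = 4 each), with a log2 fold change of 0.99 ± 0.26 (SE, edgeR adjusted p = 0.0172). Without replicate 1 of the 1 week group Adam10 alone was called (adjusted p = 0.0673 for Mmp14), and none was called by limma on log2(RPKM + 0.1) values. With a block by replicate number the adjusted p was 0.0508 for Adam10 and 0.0603 for Mmp14, and by batch number 0.0605 for Adam10.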

How the data were processed

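RNA-seq of 8 KC cultures was analysed from the gene tables deposited for each sample. The authors prepared poly(A) libraries and mapped them to GRCm38 in the CLC Genomics Workbench at default settings; the annotation release and whether counting used strand are not given in the sources used here. The count columns were deposited as whole numbers of reads for each gene and are not normalized. The deposited RPKM values, written with decimal commas, equalled exon reads divided by exon length and mapped reads, within 0.1%, in all rows with enough reads to check. Totals of exon reads per sample set the precision and are given above.

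The total reads on exons were compared by edgeR 4.0.16 under R 4.3.3 (filterByExpr, TMM, glmQLFit and glmQLFTest, all 8 samples, no pairing), with Benjamini-Hochberg adjustment over 12590 genes and a threshold of 0.05. SEs were derived from the F statistics. The steps were run on simulated counts with known changes, as many up as down, and without outlying or paired samples. This checks the code and not the calls in these data. Alternatives were DESeq2 1.42.0, upper-quartile scaling, no filter or at least 10 reads in every sample, unique or all gene reads, limma 3.58.1 on log2(RPKM + 0.1) and log2(RPKM + 1), each sample left out, and a block. The block was by replicate number or by the deposited number called the batch number above, whose meaning the labels do not give. The paper states that both times used the same batches of cells; its statistics name unpaired tests, which the fit follows. The run on 6 samples without the block was added after seeing the data. Python 3.11.15 and matplotlib 3.10.9 were used otherwise.

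Members and lists were chosen with earlier results of these data known. Every member is named, those with an adjusted p-value under 0.05 with full values; from each pathway list at most 5 genes past the threshold with the largest change and at least 1 CPM are given with values, and the other called effectors are named only. No replicate pair agreed within sampling noise (smallest chi-square per degree of freedom 15.5). The p-values measure the spread between these cultures. Promoters were taken from RefSeq (GRCm38.p6); protein sequences were not used here. Floors and intervals cover counting error only where they rest on reads.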

Additional observations from a re-analysis of the deposited data

Results flagged for a closer look

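In each group of 4 samples, the highest or lowest RPKM was compared with the others by Dixon's gap ratio at its 95% critical value for the 38 tested members, that is in 76 groups. Chance alone gives about 1 flag in 20 groups, and 5 were found. For Efna3, replicate 4 of the 3 weeks group was at 29.6 RPKM and the other 3 at 11.7 to 13.9 RPKM. For Sema3e the same sample was at 20.7 RPKM and the others at 1.65 to 3.04 RPKM. For Ephb6 it was at 3.86 RPKM and the others at 1.48 to 1.81 RPKM. For Sema4f, replicate 3 of the 1 week group was at 1.07 RPKM and the others at 0.387 to 0.493 RPKM, and for Efna2, replicate 4 of the 1 week group was at 1.73 RPKM and the others at 1.26 to 1.31 RPKM. The calls of Efna3, Sema3e, Sema4f and Efna2 held without the sample named.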

How the results depend on the processing

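Of the 13 members called, 8 were called in all 19 alternatives: Efna1, Efna2, Efna4, Plxna3, Sema3c, Sema3d, Sema4c and Sema4f. Of 717 values of member changes under an alternative, 642 kept their direction and side of the threshold, 27 lost the call, 18 gained one and 30 changed sign. Leaving out single samples gave 7 to 16 members higher, 2 to 3 lower, 4 to 17 effectors, 1 to 3 proteases and 2 to 4 partners called. Over all genes these runs gave 3015 to 4861 calls, against 4127 with all samples. By DESeq2 14 members rose, and 2424 of 12590 genes rose in all. The proteases called were 0 on log2(RPKM + 0.1) and 0 on log2(RPKM + 1), where the cause was not tested. Among all genes, 48.0% of the calls were rises with edgeR, and 29.8% and 29.3% with limma on log2(RPKM + 0.1) and log2(RPKM + 1), where the median log2 fold change of all genes was -0.16 with the first. No called member changed sign under any alternative. Signs turned for members near 0. With upper-quartile scaling Plxna2 was -0.0056. Without the filter Epha4 was -0.0040 and Plxna2 -0.027. On log2(RPKM + 0.1) Epha4 was -0.21, Plxna2 -0.20 and Efnb1 -0.11, and on log2(RPKM + 1) they were -0.13, -0.042 and -0.11. Leaving out single samples, the log2 fold changes ranged from -0.46 to 0.36 for Epha4, -0.35 to 0.26 for Plxna2, -0.28 to 0.038 for Sema4b, -0.41 to 0.11 for Ephb6, -0.055 to 0.25 for Efnb1, -0.22 to 0.0060 for Epha2, -0.26 to 0.51 for Plxnd1, -0.035 to 0.54 for Plxnb2 and -0.042 to 0.39 for Ephb3.

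Deviations from the group mean were correlated between 1 week and 3 weeks samples. Samples with the same replicate number gave -0.227, -0.146, -0.146 and 0.249. Those with the same batch number, for the 3 numbers found at both times, gave -0.227, 0.200 and 0.249. Pairs with neither number in common ranged from -0.285 to 0.416. So few pairs cannot decide whether samples were paired. The paper states that batches were shared, so the fits with a block are given as well. With the replicate block by label number 2867 of all genes were called instead of 4127, 10 members rose and 2 fell, 0 proteases were called, Epha4 was -0.042 and Plxna2 -0.13. With the replicate block by batch number in 6 samples 3109 of all genes were called, 12 members rose, 5 effectors and 1 protease were called, Epha2 was 0.049 and Sema4b 0.0034. The same 6 samples without the block gave 0.044 for Epha2. With 11 to 32 reads per sample at 1 week for Sema3d and Sema6c, depth limits the precision of these changes.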
